A study of Mus musculus with 12 samples.

Results

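The genes described here build the contacts by which neighbouring cells hold together, seal the space between them and exchange small molecules: classical and atypical cadherins, claudins, desmosome components, tight junction scaffolds and connexins. Members were chosen by gene symbol, as the numbered cadherins (Cdh), claudins (Cldn), connexins (Gja, Gjb, Gjc and Gjd), plakophilins (Pkp), desmogleins (Dsg), desmocollins (Dsc) and zonula occludens proteins (Tjp), together with F11r, Dsp, Jup, Ocln, Cdsn, Marveld2, Marveld3 and Cgn. The rule found 90 genes among 57180 rows of the count table. It held 23 cadherins, 24 claudins, 19 connexins, 16 desmosome genes and 8 scaffolds or other tight junction proteins. Expression was high enough to be tested for 39 of the 90, and 51 were not tested.

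RNA was sequenced from 12 libraries of 2 mouse tumour cell lines, both labelled WT and grown in serum-containing DMEM. MB49 cells derive from a bladder cancer, and KPC cells from a ductal adenocarcinoma of the pancreas. Each line gave 3 control libraries and 3 libraries of cells cultured for 48 h after a radiation dose of 8 Gy, so the 4 groups are MB49 control, MB49 8 Gy, KPC control and KPC 8 Gy. The culture time of the controls is not stated, and the labels do not say whether replicates were separate cultures, so p-values measure the spread between these libraries. Each tumour type is represented by 1 established line. The series compares senescent with non-senescent tumour cells, while the library labels give the radiation and not a senescence readout.

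As background, cadherins are calcium-dependent adhesion proteins whose tails bind catenins and, through them, the actin cytoskeleton. Claudins form the strands of tight junctions and set which ions pass between cells, with occludin and F11r (JAM-A) beside them and scaffolds such as Tjp1 and Tjp3 beneath. Desmosomes join the keratin filaments of neighbouring cells through desmogleins, desmocollins, plakoglobin (Jup), plakophilins and desmoplakin (Dsp). Connexins assemble into channels that link the cytoplasm of adjoining cells. Epithelial tissues such as urothelium and pancreatic duct carry all of these, and carcinoma cells can lose some of them.

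Libraries held 19005991 to 26337928 counts, of which 0.136% to 0.198% fell on members. Levels are given as CPM, the counts of a gene scaled to a common library size after adjustment for composition. The third MB49 control library stood apart in genes of this group. Of 37 members with at least 10 counts in the MB49 controls, 8 had at least 80% of them in that library. The matching share of all genes was not counted, so this is not shown to be particular to the members. Cdh1 had 2, 2 and 62 counts in MB49 control replicates 1, 2 and 3, Cdh17 had 0, 0 and 33 counts, Cldn7 had 1, 0 and 34 counts, and the desmosome gene Dsp had 2, 3 and 42 counts. Abundant members were not concentrated there: replicate 3 held 26.6% of the Cdh13 counts and 32.1% of the F11r counts. Other genes present in that library and not in the other two included Epcam (0, 0 and 86 counts), Hnf4a (0, 0 and 44), Cdx2 (0, 0 and 28) and the stromal gene Lum (0, 0 and 17). The collagen genes Col1a2 (1, 2 and 225 counts) and Col3a1 (87, 65 and 569) were high there as well. These genes were picked after their values were seen, and the origin of the counts was not tested. Changes that moved by over 1.5 times, or whose call changed, without this library are given with and without it. KPC control replicate 1 had 5.11% of its counts on the ribosomal RNA gene Rn18s-rs5, against 0.141% to 0.547% in the other libraries.

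**Figure D1:**
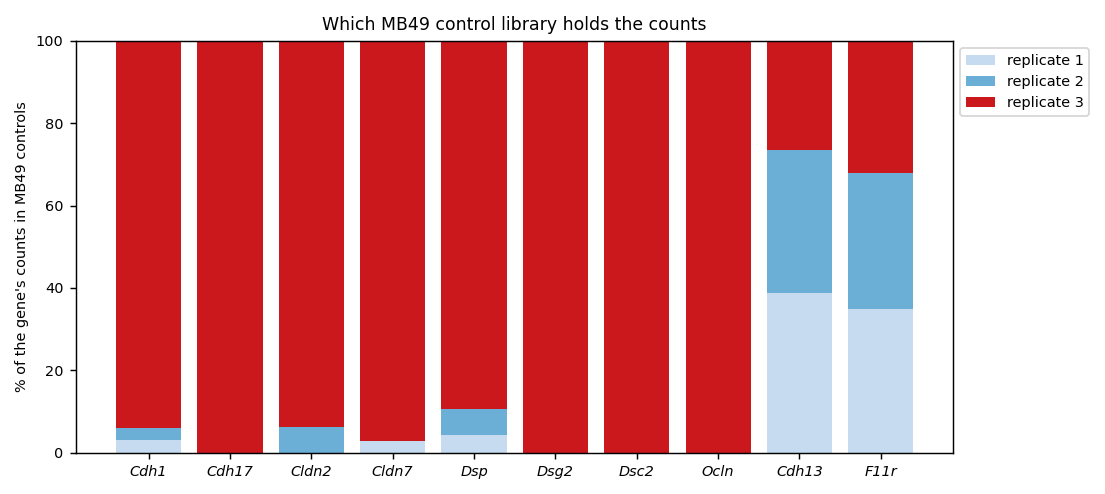
Share of each gene's MB49 control counts (vertical axis, percent of the summed counts of 3 libraries) found in replicates 1, 2 and 3, for 8 members at low counts and for Cdh13 and F11r as abundant members. Replicate 3 holds 93.9% of the Cdh1 counts and 100% of the Cdh17 counts, but 26.6% of the Cdh13 counts.

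Promoter windows are printed for 5 members chosen after their values were seen: Cdsn, Jup, Tjp3 and Gja1, which changed in both lines, and Cldn6, which 1 line expressed. They run from 250 bases before to 50 bases after the annotated start, are taken from RefSeq (build GRCm38.p6, whereas the counts were made on GRCm39) and read 5′ to 3′ on the gene's strand. Windows existed for 54 of the 90 members and 22 of the 39 tested. For Cdsn and Tjp3, with 2 annotated starts each, the window nearest the 5′ end of the GENCODE gene is shown. For Cdsn the other RefSeq start lies upstream of it. Capitals mark matches, on either strand, to TGANTCA (the AP-1 motif) or CACCTG (the E-box bound by SNAIL and ZEB repressors).

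Cdsn, chr17:35551878-35552177, plus strand: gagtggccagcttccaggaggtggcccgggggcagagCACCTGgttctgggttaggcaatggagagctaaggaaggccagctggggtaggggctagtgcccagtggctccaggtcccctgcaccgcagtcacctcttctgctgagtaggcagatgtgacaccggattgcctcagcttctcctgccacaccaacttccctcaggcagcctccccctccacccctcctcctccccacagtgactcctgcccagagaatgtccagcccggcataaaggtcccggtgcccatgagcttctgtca
Jup, chr11:100397741-100398040, minus strand: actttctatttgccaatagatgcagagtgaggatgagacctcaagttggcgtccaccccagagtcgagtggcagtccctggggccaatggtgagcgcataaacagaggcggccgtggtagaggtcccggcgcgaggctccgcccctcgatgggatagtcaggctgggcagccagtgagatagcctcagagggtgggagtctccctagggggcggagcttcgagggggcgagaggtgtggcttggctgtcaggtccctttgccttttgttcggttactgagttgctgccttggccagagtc
Tjp3, chr10:81291532-81291831, minus strand: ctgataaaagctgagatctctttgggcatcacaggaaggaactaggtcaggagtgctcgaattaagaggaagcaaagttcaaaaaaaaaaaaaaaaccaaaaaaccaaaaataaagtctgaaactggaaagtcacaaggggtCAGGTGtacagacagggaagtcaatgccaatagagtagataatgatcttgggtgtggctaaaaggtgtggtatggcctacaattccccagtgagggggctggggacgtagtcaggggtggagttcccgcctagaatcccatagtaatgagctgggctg
Gja1, chr10:56377050-56377349, plus strand: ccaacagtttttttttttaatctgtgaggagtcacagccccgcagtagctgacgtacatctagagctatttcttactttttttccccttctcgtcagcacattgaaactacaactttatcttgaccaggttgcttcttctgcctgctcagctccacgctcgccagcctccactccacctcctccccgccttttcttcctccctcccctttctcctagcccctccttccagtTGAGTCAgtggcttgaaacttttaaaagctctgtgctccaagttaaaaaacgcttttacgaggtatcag
Cldn6, chr17:23679115-23679414, plus strand: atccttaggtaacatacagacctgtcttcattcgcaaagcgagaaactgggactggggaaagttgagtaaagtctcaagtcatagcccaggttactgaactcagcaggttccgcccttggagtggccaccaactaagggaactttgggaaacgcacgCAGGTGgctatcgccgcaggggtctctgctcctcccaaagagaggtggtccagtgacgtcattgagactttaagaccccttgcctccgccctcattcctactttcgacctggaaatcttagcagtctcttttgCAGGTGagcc

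Gja1 held an AP-1 match 19 bases before its start. Cdsn held an E-box 213 bases before the start shown, Tjp3 held 1 at 108 bases before, and Cldn6 held 1 on each side of its start, at 93 bases before and 41 bases after. No match lay in the Jup window. No 2 matches overlapped in these windows. Over all 32851 mouse windows, 7.81% held the AP-1 motif and 20.2% held the E-box. Among the 22 tested members with a window, 3 held the AP-1 motif (Cldn4, F11r and Gja1) and 10 held the E-box in at least 1 window. The percentages above are shares of windows, so counts of genes with several windows are not their like. Counted by window, 3 of the 30 windows of tested members held the AP-1 motif and 14 held the E-box. Windows of the same gene can overlap, and in Marveld2 and Ocln the same E-box was counted in more than 1 window. Enrichment was not tested. These are matches of letters, and binding was not measured.

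After 8 Gy, 25 of the 39 tested members changed in MB49 (11 higher, 14 lower) and 23 changed in KPC (13 higher, 10 lower), by edgeR's quasi-likelihood test at an adjusted p under 0.05. This is 64.1% of the tested members in MB49 and 59% in KPC. Most of the transcriptome differed after radiation: 66.9% of all 14362 tested genes were called in MB49 (35.3% higher, 31.6% lower) and 63.3% in KPC (31.3% higher, 32% lower), so the members were called about as often as any tested gene. The median log2 fold change of the tested members was -0.54 in MB49, against 0.04 for all tested genes, and 0.14 in KPC, against -0.01. Without MB49 control replicate 3 the members' median in MB49 was 0, against 0.07 for all genes, with 11 higher and 14 lower. The responses of the lines differed in 16 members (11 higher and 5 lower in KPC than in MB49), or 41%, against 42.9% of all tested genes (20.9% higher, 22% lower). Between the untreated lines, 34 of 39 tested members differed (15 higher and 19 lower in KPC), or 87.2%, against 67.3% of all genes (33% higher, 34.4% lower). The filter keeps a gene that only 1 line expresses, so such members could hardly fail to differ, and this count is a description. With library totals as the only scaling, the share of higher genes among all genes called fell from 52.7% to 39.5% in MB49 and from 49.4% to 31.8% in KPC. The count table cannot tell fewer cells expressing a gene from less RNA per cell.

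**Figure D2:**
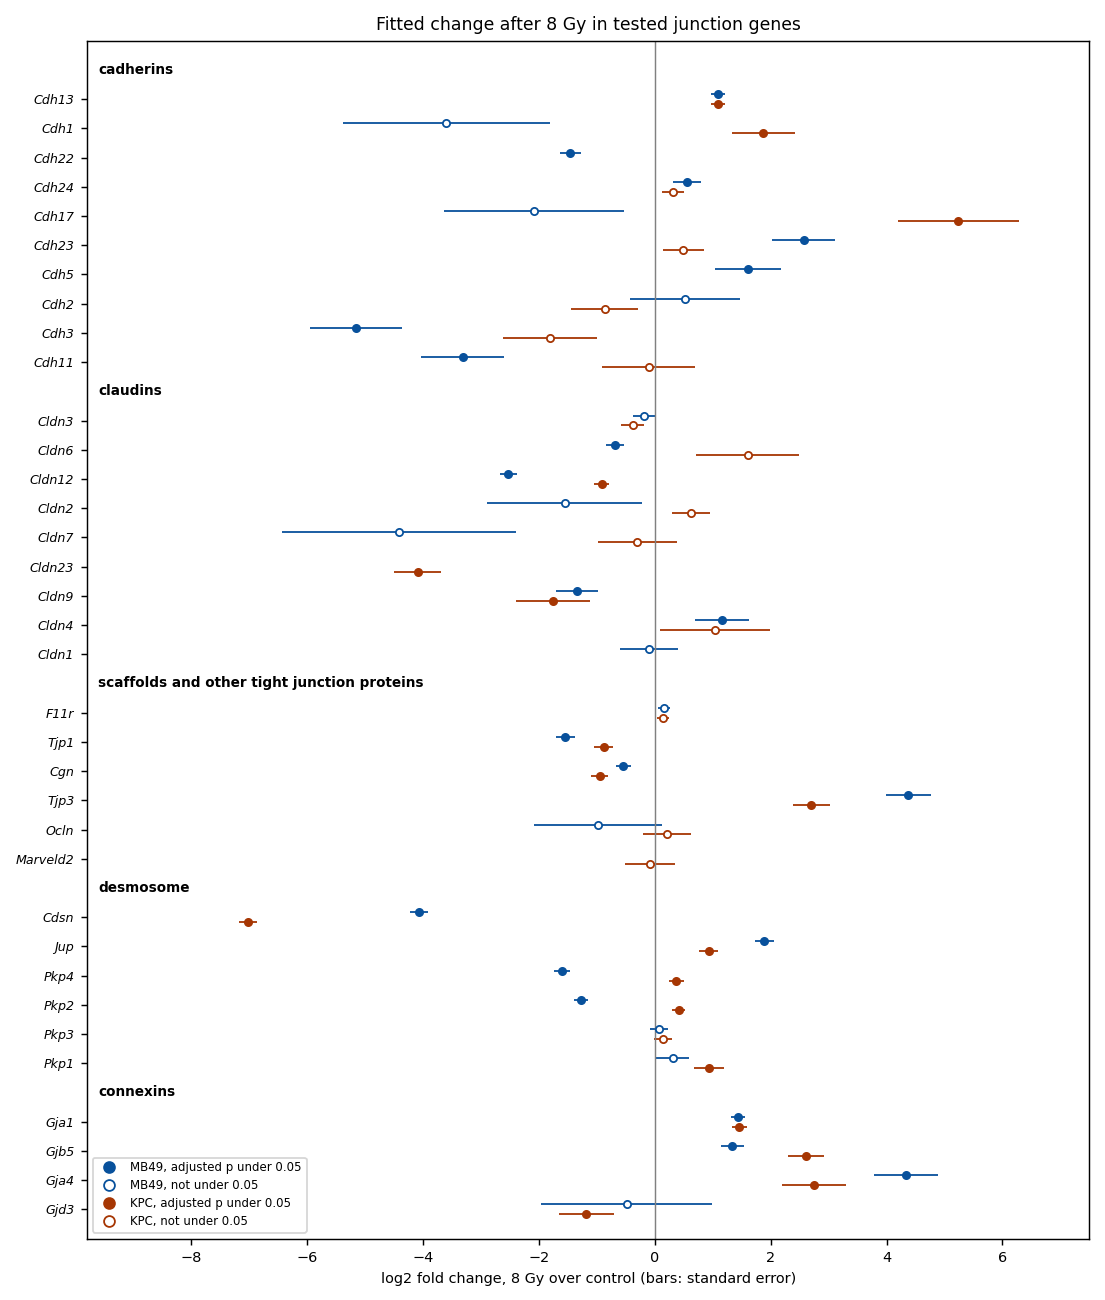
Fitted log2 fold change of 8 Gy over control (horizontal axis, bars are standard errors) in MB49 (blue) and KPC (orange) for tested members, grouped by role and ordered by level; filled points have an adjusted p under 0.05, and no point is drawn where either group of the line had 0 counts. Cdsn lies farthest left in KPC, at -7.02, and Cdh13 and Gja1 lie at nearly the same place in both lines.

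Of the 10 tested cadherins, 4 rose and 3 fell in MB49 after 8 Gy (70% called), and 3 rose and 0 fell in KPC (30%). Over all tested genes, 66.9% were called in MB49 and 63.3% in KPC. Cdh1 (E-cadherin), the cadherin of epithelial adherens junctions, was a KPC gene and rose there. It was read at 33.3, 37.9 and 45.7 CPM in the 3 KPC control libraries and at 153, 132 and 143 CPM after 8 Gy, with no overlap. The log2 change was 1.87 ± 0.54 (adjusted p = 0.0142) by edgeR (changes and differences of single genes are log2 values ± standard error throughout), with an adjusted p of 0.111 by DESeq2 and of 2.46e-10 by edgeR without MB49 control replicate 3. In MB49 it was close to absent, at 0.0726, 0.0733 and 2.69 CPM in the control libraries and 0.0575, 0.0482 and 0.0932 CPM after radiation. The fitted MB49 change of -3.60 ± 1.78 (adjusted p = 0.105) rested on control replicate 3, without which it was -0.12 (adjusted p = 0.931). The responses differed by 5.47 ± 1.74 (adjusted p = 0.0323) with that library and by 1.99 (adjusted p = 0.114) without it, so this call does not hold without it. KPC controls exceeded MB49 controls by 5.47 ± 0.74 (adjusted p = 0.000143), and by 8.95 (adjusted p = 5.54e-15) without that library.

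Cdh13 (T-cadherin), which is anchored to the membrane by a lipid and has no tail, was the most abundant cadherin per kilobase in all 4 groups. MB49 libraries gave 95.9, 87.00 and 78.7 CPM in controls and 205, 189.8 and 163 CPM after 8 Gy. KPC libraries gave 102, 107 and 119 CPM and 234, 222 and 242 CPM. Treated and control libraries did not overlap in either line, and the rises were 1.09 ± 0.12 (adjusted p = 4.59e-07) in MB49 and 1.09 ± 0.12 (adjusted p = 4.86e-07) in KPC, a difference of 0.00 ± 0.17 (adjusted p = 1). KPC controls were a little above MB49 controls, by 0.32 ± 0.12 (adjusted p = 0.0241), a call kept in 15 of 19 alternatives. Without MB49 control replicate 3 it was lost, at 0.25 (adjusted p = 0.0949), and the response difference was 0.07 (adjusted p = 0.773).

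Cdh22 was an MB49 gene that fell. It stood at 41.8, 35.02 and 44.6 CPM in MB49 controls and 16.9, 16.2 and 10.96 CPM after 8 Gy, without overlap and with a log2 change of -1.46 ± 0.18 (adjusted p = 8.44e-06). None of the 6 KPC libraries held a Cdh22 count, which makes KPC controls at least 1010-fold lower than MB49 controls (against 3 counts over the group). Cdh17, the intestinal (liver-intestine) cadherin, appeared in KPC after radiation. It had 6, 6 and 3 counts in KPC controls, and 7.39, 9.06 and 6.69 CPM were reached after 8 Gy, a log2 change of 5.24 ± 1.04 (adjusted p = 0.00141). In MB49 its 0, 0 and 33 counts in controls lay wholly in replicate 3, and its 0, 2 and 4 counts after 8 Gy were few. The fitted MB49 change turned from -2.09 ± 1.55 (adjusted p = 0.26) to 4.26 (adjusted p = 0.0179) without replicate 3, the response difference from 7.33 ± 1.82 (adjusted p = 0.00907) to 0.98 (adjusted p = 0.711), and the line difference in controls from -1.13 ± 1.29 (adjusted p = 0.459) to 5.22 (adjusted p = 0.0016). No MB49 direction is therefore given for Cdh17.

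Cdh24 was higher in KPC, at 9.52, 11.3 and 11.4 CPM in controls and 13.8, 11.96 and 14.3 CPM after 8 Gy, than in MB49, at 1.82, 1.39 and 1.47 CPM and 3.28, 2.07 and 1.63 CPM. The lines' controls differed by 2.77 ± 0.22 (adjusted p = 5.43e-09). Its MB49 change of 0.56 ± 0.24 (adjusted p = 0.0495) kept its call in only 3 of 19 alternative settings. Without MB49 control replicate 3 it was 0.51 (adjusted p = 0.0996). In KPC the change was 0.32 ± 0.19 (adjusted p = 0.161). The remaining 5 tested cadherins stayed at or below 1.60 CPM in each group mean. Cdh3 (P-cadherin) went from 61 summed counts to 1 in MB49, a ratio of 46.7 (95% counting interval 8.07 to 1870), and Cdh11 from 43 to 3, a ratio of 11 (3.51 to 55.2). Both falls were called (adjusted p = 2.09e-05 and 0.000592). Cdh5 (VE-cadherin, the cadherin of endothelium) rose in MB49 from 28 to 67 counts, 1.60 ± 0.57 (adjusted p = 0.0231), and had 0 counts in KPC. That call was kept in 12 of 18 alternatives: the change was 2.60 (adjusted p = 0.00107) without MB49 control replicate 3, but 1.20 (adjusted p = 0.101) without replicate 1, 1.32 (adjusted p = 0.0956) without replicate 2, and 1.60 (adjusted p = 0.0614) by DESeq2. It was also lost with library totals and without MB49 8 Gy replicate 1 or 3. Cdh23 rose in MB49 from 7 to 33 counts, 2.57 ± 0.54 (adjusted p = 0.000479). Cdh23 encloses the gene Vsir on the opposite strand, whose summed counts went from 26 to 158 in MB49 and from 333 to 417 in KPC, and reads of the pair cannot be told apart where counting ignores strand, which no source used here states. Cdh2 (N-cadherin), often raised where Cdh1 is lost, held 7 and 8 counts in MB49 and 69 and 31 in KPC, and neither radiation comparison called it.

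**Figure D3:**
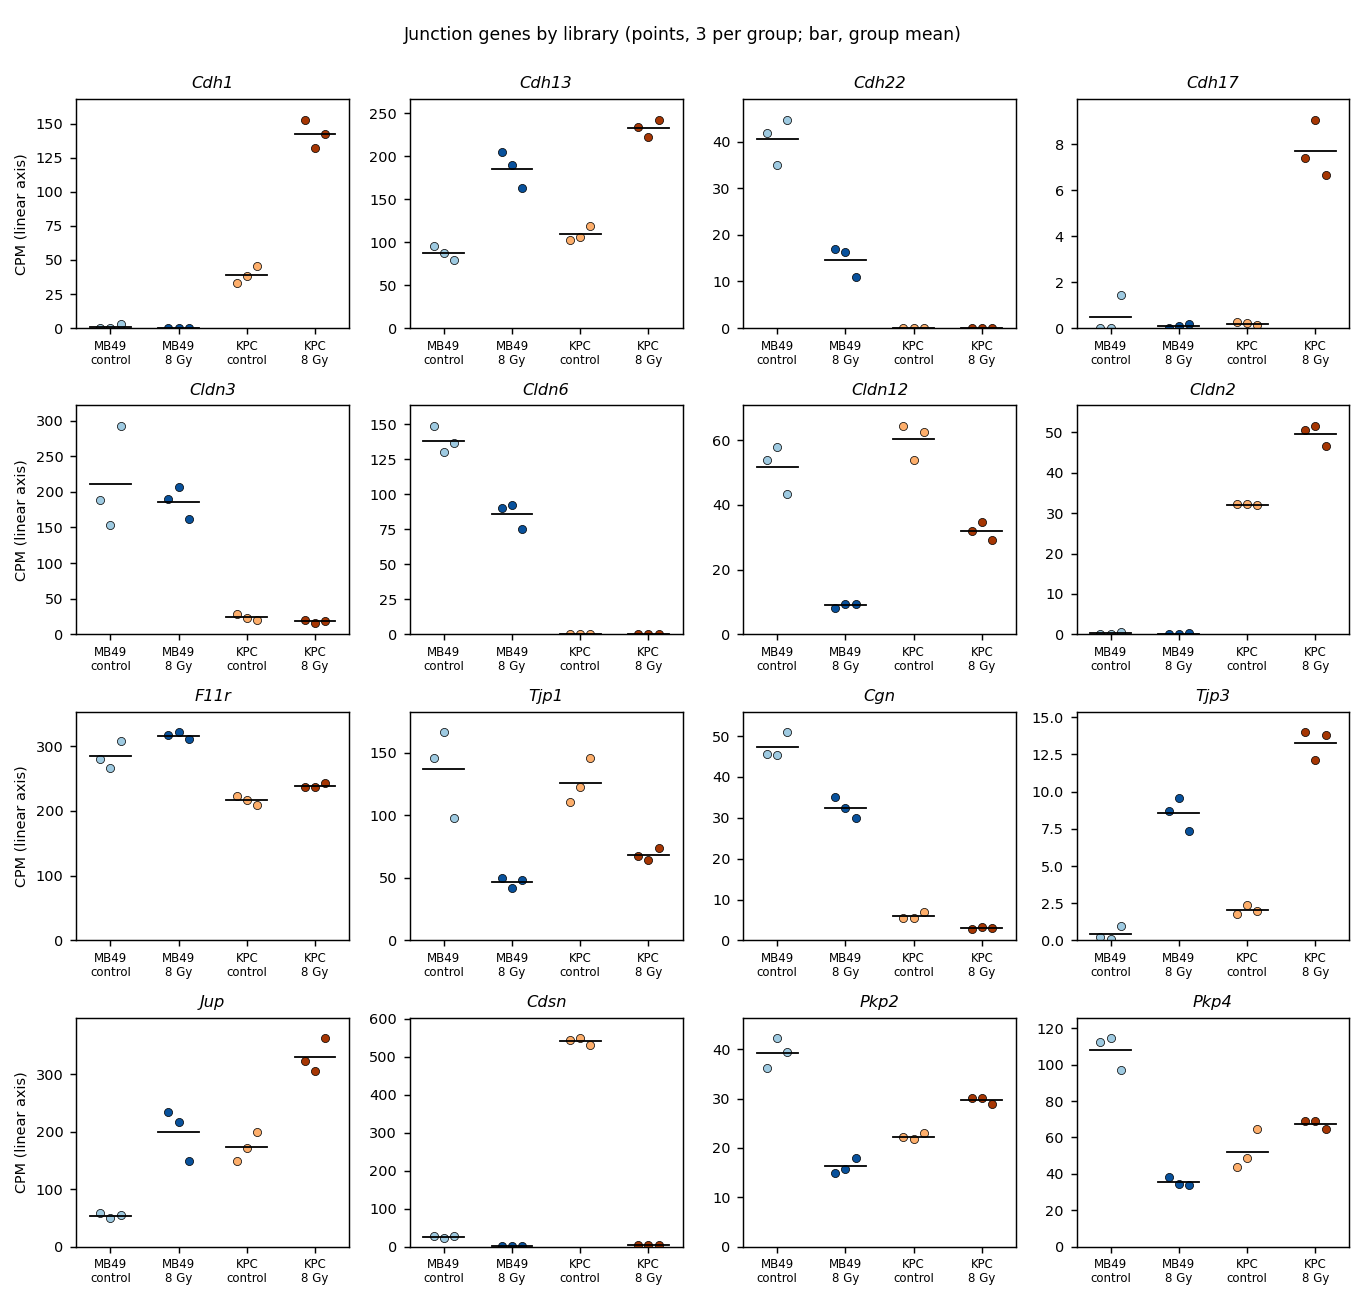
CPM (vertical axes, linear, from 0) of 16 members in each of the 12 libraries; each point is a library, with 3 per group, and the bar is the group mean. Cdh1 and Cldn2 are high in KPC libraries, Cdh17 in the KPC 8 Gy libraries, Cdh22 and Cldn6 in MB49 libraries, and Cdsn falls from a KPC control mean of 540.4 CPM to 4.16 CPM after 8 Gy.

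Of the 9 tested claudins, 1 rose and 3 fell in each line (44.4% called, against 66.9% of all tested genes in MB49 and 63.3% in KPC). Per kilobase, Cldn3 led in both MB49 groups and in KPC controls, and Cldn2 led in KPC after 8 Gy. Cldn6 was nearly confined to MB49 libraries, Cldn2 and Cldn23 to KPC libraries, and Cldn12 was shared. Cldn3, a sealing claudin, read 189, 153 and 292 CPM in MB49 controls and 189.6, 207 and 162 CPM after 8 Gy, with overlapping groups and a change of -0.18 ± 0.19 (adjusted p = 0.411). In KPC it read 28.2, 23.5 and 20.1 CPM and 19.5, 16.3 and 19.3 CPM, a change of -0.38 ± 0.20 (adjusted p = 0.11). Without MB49 control replicate 3, in which Cldn3 was highest, these became 0.12 (adjusted p = 0.519) and -0.38 (adjusted p = 0.0284), so the MB49 sign turned and the KPC value passed the threshold. Controls of KPC were below those of MB49, at -3.14 ± 0.21 (adjusted p = 9.12e-10). Cldn6, a claudin of embryonic epithelia, read 149, 130.01 and 136 CPM in MB49 controls and 90.1, 92.5 and 74.9 CPM after 8 Gy, and the fall of -0.69 ± 0.16 (adjusted p = 0.000999) separated the groups. KPC libraries held 3 Cldn6 counts in controls and 8 after 8 Gy, against 10789 in MB49 controls. The promoter window of Cldn6 is among those printed.

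Cldn12 fell in both lines, and further in MB49. It went from 53.8, 57.99 and 43.3 CPM to 8.17, 9.21 and 9.46 CPM in MB49 and from 64.4, 54.01 and 62.6 CPM to 31.9, 34.8 and 29.2 CPM in KPC, with no overlap in either line. The changes were -2.53 ± 0.14 (adjusted p = 8.88e-11) and -0.91 ± 0.13 (adjusted p = 1.03e-05), which differed by 1.61 ± 0.19 (adjusted p = 4.59e-06). The lines' controls were not called different, at 0.22 ± 0.13 (adjusted p = 0.137), or 0.11 (adjusted p = 0.466) without MB49 control replicate 3. Cldn2, which forms pores for cations and water, read 32.1, 32.2 and 32.1 CPM in KPC controls and 50.5, 51.5 and 46.5 CPM after 8 Gy. Every treated KPC library was above every control, but the change of 0.62 ± 0.32 (adjusted p = 0.114) missed the threshold. KPC controls were above MB49 controls by 7.24 ± 0.53 (adjusted p = 1.75e-07), and by 10.40 (adjusted p = 1.36e-13) without MB49 control replicate 3. MB49 controls held 0, 1 and 15 counts, and without replicate 3 the KPC change was 0.62 (adjusted p = 0.00193).

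Cldn23 fell in KPC, from 5.45, 4.15 and 5.72 CPM to 0.298, 0.347 and 0.229 CPM, a change of -4.09 ± 0.40 (adjusted p = 3.42e-07). MB49 libraries held 2 and 0 counts of it. Cldn7 read 6.15, 5.31 and 5.27 CPM in KPC controls and 3.67, 4.51 and 5.43 CPM after 8 Gy, groups that overlapped. Its KPC change of -0.30 ± 0.67 (adjusted p = 0.726) was not called, nor was it without MB49 control replicate 3 (-0.30, adjusted p = 0.254). Its MB49 change was -4.41 ± 2.02 (adjusted p = 0.0781) with control replicate 3 and -0.09 (adjusted p = 0.973) without it. Of the low claudins, Cldn9, a neighbour of Cldn6 on chromosome 17, fell in both lines, from 2.96 CPM to 1.15 CPM in MB49 (-1.34 ± 0.36, adjusted p = 0.00366) and from 26 to 6 counts in KPC (-1.76 ± 0.64, adjusted p = 0.0233). The KPC call was kept in 16 of 18 alternatives. It was lost without KPC control replicate 1 (-1.60, adjusted p = 0.0638) and without KPC 8 Gy replicate 3 (-1.28, adjusted p = 0.0793). Cldn4, a neighbour of Cldn3 on chromosome 5, rose in MB49 from 0.688 CPM to 1.53 CPM, 1.16 ± 0.47 (adjusted p = 0.036), a call kept in 8 of 19 alternatives. Cldn1 had 0 counts in KPC controls and 14 after 8 Gy, at least 5.78-fold higher, while MB49 held 53 and 38 counts.

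Among the proteins beneath and beside the claudin strands, the scaffolds Tjp1 and Cgn fell in both lines and Tjp3 rose in both. F11r, the adhesion receptor JAM-A and the most abundant of these per kilobase, was not called in either line. F11r read 279.6, 266 and 307 CPM in MB49 controls and 317, 321 and 311 CPM after 8 Gy, and 222, 217 and 209 CPM and 236, 236 and 244 CPM in KPC. The groups did not overlap in either line, but changes of 0.15 ± 0.10 (adjusted p = 0.199) and 0.14 ± 0.10 (adjusted p = 0.243) missed the threshold. With library totals as the only scaling the signs turned, to -0.14 (adjusted p = 0.17) in MB49 and to -0.24 (adjusted p = 0.0247) in KPC, a called fall. By DESeq2 the KPC change was a called rise of 0.20 (adjusted p = 0.0284), so no direction is given. Controls of KPC were below those of MB49, at -0.39 ± 0.10 (adjusted p = 0.00282).

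Tjp1 (ZO-1), the scaffold that ties tight junction proteins to actin, fell from 145, 166 and 98.05 CPM to 50.1, 41.7 and 48.5 CPM in MB49 and from 110.2, 123 and 145 CPM to 67.1, 64.3 and 73.7 CPM in KPC. Treated libraries lay below all controls of their line. The changes were -1.55 ± 0.17 (adjusted p = 3.25e-07) and -0.88 ± 0.16 (adjusted p = 0.00015), and the difference of 0.66 ± 0.23 (adjusted p = 0.0276) was called, in 11 of 18 alternatives as well. The controls of the lines were not called different (-0.12 ± 0.16, adjusted p = 0.542), nor without MB49 control replicate 3 (-0.31, adjusted p = 0.0536). Tjp1 is annotated at 7049 bases. In MB49 the median log2 change of all genes ran from 0.64 in the shortest eighth (132 to 1144 bases) to -0.28 in the longest (from 5470 bases), and in KPC from -0.06 to -0.09. Set against genes of the longest eighth, Tjp1 stood at -1.26 in MB49 and -0.80 in KPC. The part of length in the falls was not tested further.

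Cgn (cingulin), which links the junction to myosin and microtubules, fell from 45.7, 45.3 and 50.9 CPM to 34.97, 32.5 and 29.98 CPM in MB49 and from 5.36, 5.39 and 6.90 CPM to 2.88, 3.16 and 3.09 CPM in KPC. Its changes were -0.54 ± 0.12 (adjusted p = 0.000918) and -0.95 ± 0.15 (adjusted p = 2.94e-05), and KPC controls were lower than MB49 controls, at -3.01 ± 0.14 (adjusted p = 2.69e-12). Tjp3 (ZO-3), another ZO scaffold, moved the other way. It was at 0.218, 0.11 and 0.954 CPM in MB49 controls and 8.68, 9.54 and 7.37 CPM after 8 Gy, and at 1.79, 2.36 and 1.96 CPM and 13.99, 12.1 and 13.8 CPM in KPC. All treated libraries exceeded all controls of their line, with changes of 4.38 ± 0.39 (adjusted p = 5.08e-08) and 2.70 ± 0.32 (adjusted p = 1.46e-06) that differed by -1.68 ± 0.51 (adjusted p = 0.0149). Without MB49 control replicate 3, which held 22 of the 31 MB49 control counts, the MB49 change was 5.65 (adjusted p = 2.59e-11) and the difference -2.95 (adjusted p = 1.02e-05). Tjp3 overlaps the opposite-strand gene Apba3 by 40 bases, whose summed counts went from 4767 to 3798 in MB49 and from 3419 to 4893 in KPC. Occludin (Ocln) and tricellulin (Marveld2) were low KPC genes that neither radiation comparison called. Ocln had 2.42 CPM in KPC controls and 2.79 CPM after 8 Gy, Marveld2 had 1.86 CPM and 1.76 CPM, and MB49 control counts of both lay in replicate 3.

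Desmosome genes were present in part. The desmosomal cadherins, which would span the gap between cells, were all but missing: 5 of the desmogleins (Dsg1a, Dsg1b, Dsg1c, Dsg3 and Dsg4) had 0 counts in all 12 libraries, and Dsc1, Dsc2, Dsc3 and Dsg2 had at most 14 counts in all. Dsg2 and Dsc2 counts lay wholly in MB49 control replicate 3 (0, 0 and 14 counts and 0, 0 and 11 counts in replicates 1 to 3). Desmoplakin (Dsp), which anchors keratin, had 84 counts over all libraries. In contrast, plakoglobin (Jup), the plakophilins Pkp2, Pkp3 and Pkp4, and corneodesmosin (Cdsn) were expressed in both lines. Jup and the plakophilins also serve cadherins outside desmosomes.

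Cdsn, an adhesive glycoprotein known from the corneodesmosomes of the outer skin, all but disappeared after radiation in both lines. In KPC it fell from 543, 548 and 531 CPM to 4.46, 3.68 and 4.34 CPM. In MB49 it fell from 28.4, 23.2 and 26.7 CPM to 1.96, 1.30 and 1.45 CPM. The changes were -7.02 ± 0.16 (adjusted p = 2.17e-15) in KPC and -4.07 ± 0.16 (adjusted p = 1.39e-12) in MB49, and they differed by -2.95 ± 0.23 (adjusted p = 3.98e-08). Controls of KPC exceeded those of MB49 by 4.37 ± 0.14 (adjusted p = 2.47e-14), while after 8 Gy both lines were under 5 CPM. Cdsn was 72% of the desmosome total per kilobase in KPC controls and 1.14% after 8 Gy.

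Jup, which binds cadherin tails in both desmosomes and adherens junctions, rose in both lines. It went from 58.5, 49.01 and 54.5 CPM to 234, 217 and 149 CPM in MB49 and from 148, 172 and 200.3 CPM to 323, 305 and 362 CPM in KPC, without overlap. The changes were 1.89 ± 0.16 (adjusted p = 2e-08) and 0.93 ± 0.16 (adjusted p = 6.48e-05), a difference of -0.96 ± 0.22 (adjusted p = 0.00226), and Jup was the leading desmosome gene per kilobase after 8 Gy in both lines. Pkp4 and Pkp2, armadillo proteins of the junction plaque, differed in response between the lines. Pkp4 fell in MB49 from 112, 114 and 96.9 CPM to 38.2, 34.5 and 33.9 CPM, or -1.60 ± 0.14 (adjusted p = 1.99e-08). In KPC it read 43.6, 48.7 and 64.5 CPM in controls and 69.04, 69.3 and 64.5 CPM after 8 Gy, groups that overlapped, at 0.37 ± 0.13 (adjusted p = 0.0232). That KPC rise turned to -0.02 with library totals as the only scaling, and the call was lost without KPC control replicate 1 or 2 or KPC 8 Gy replicate 1 or 2 (adjusted p = 0.062 to 0.0956). The response difference of 1.97 ± 0.19 (adjusted p = 5.92e-07) was called in all 18 alternatives.

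Pkp2 fell in MB49 from 36.2, 42.2 and 39.5 CPM to 15.01, 15.7 and 18.04 CPM and rose in KPC from 22.2, 21.8 and 23.03 CPM to 30.1, 30.2 and 28.9 CPM, with no overlap in either line. Its changes were -1.27 ± 0.12 (adjusted p = 4.3e-08) and 0.41 ± 0.11 (adjusted p = 0.00455), and they differed by 1.69 ± 0.16 (adjusted p = 5.45e-07). The KPC rise was 0.03 with library totals as the only scaling. Pkp3 did not change beyond its spread in either line. It read 33.3, 27.1 and 31.96 CPM and 36.5, 35.3 and 25.4 CPM in MB49 and 16.1, 12.7 and 14.8 CPM and 15.6, 14.3 and 18.1 CPM in KPC, with changes of 0.07 ± 0.15 (adjusted p = 0.684) and 0.14 ± 0.16 (adjusted p = 0.454). KPC controls were below MB49 controls, at -1.08 ± 0.15 (adjusted p = 8.14e-06). Pkp1, a plakophilin of stratified epithelia, rose in KPC from 1.71 CPM to 3.26 CPM, 0.93 ± 0.26 (adjusted p = 0.00505), and was at 1.19 CPM and 1.49 CPM in MB49. With library totals as the only scaling its KPC call was lost, at 0.55 (adjusted p = 0.0849).

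Of the 7 tested connexins, 4 rose and 2 fell in MB49 (85.7% called), and 4 rose and 3 fell in KPC (100%). Over all tested genes the shares were 66.9% and 63.3%. Gja1 (connexin of the heart and of many other tissues) rose in both lines. Gja1 went from 71.99, 77.5 and 70.6 CPM to 190.3, 189 and 217 CPM in MB49 and from 86.3, 106 and 112 CPM to 298, 288 and 253 CPM in KPC. Treated and control libraries were far apart in both lines, and the changes of 1.44 ± 0.12 (adjusted p = 2.16e-08) and 1.46 ± 0.12 (adjusted p = 1.95e-08) differed by 0.02 ± 0.17 (adjusted p = 0.948). Without MB49 control replicate 3 the difference was 0.06 (adjusted p = 0.853).

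Gjb5 rose from 5.55, 3.99 and 5.25 CPM to 13.6, 12.9 and 10.9 CPM in MB49 and from 0.374, 0.15 and 0.245 CPM to 1.69, 1.47 and 1.54 CPM in KPC, with changes of 1.34 ± 0.19 (adjusted p = 1.01e-05) and 2.60 ± 0.31 (adjusted p = 1.18e-06) and a difference of 1.26 ± 0.37 (adjusted p = 0.0112). Gja4, a connexin known from blood vessels and the oocyte, rose from 6 to 100 summed counts in MB49 and from 8 to 45 in KPC. Its changes were 4.33 ± 0.55 (adjusted p = 2.13e-06) and 2.75 ± 0.56 (adjusted p = 0.000359), both at under 2 CPM. They were 5.32 (adjusted p = 1.06e-06) in MB49 without MB49 control replicate 3 and 3.47 in KPC without KPC control replicate 2. Gjd3 was a low KPC gene, with a control mean of 1.48 CPM and a mean of 0.663 CPM after 8 Gy. Its fall of -1.18 ± 0.47 (adjusted p = 0.0366) came with overlapping libraries and was kept in 14 of 19 alternatives. It was lost by DESeq2 (adjusted p = 0.101) and in 4 fits that left out a KPC library (adjusted p = 0.0653 to 0.184).

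**Figure D4:**
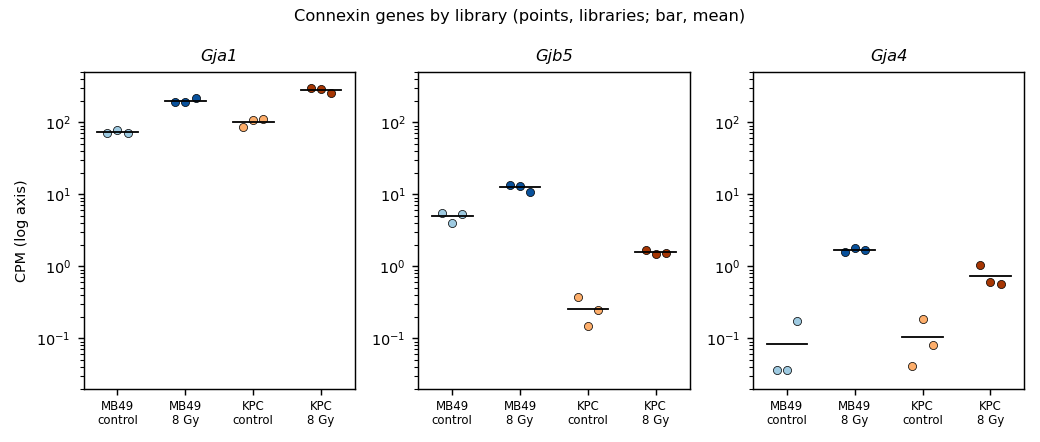
CPM (vertical axes, logarithmic) of the connexin genes Gja1, Gjb5 and Gja4 by library; each point is a library and the bar is the mean of 3. All 3 genes are higher after 8 Gy than in controls in both lines.

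Summed per kilobase of transcript, which allows genes of different length to be added, the make-up of the families shifted after radiation. Cadherins went from 35.2 ± 2.17 CPM per kilobase (SD, n = 3) to 54.2 ± 6.67 in MB49, where Cdh13 came to 90.6% ± 0.835 of the sum, and from 41.1 ± 3.88 to 100.03 ± 4.47 in KPC, where Cdh1 went from 21.3% ± 1.40 to 32.2% ± 1.25. Claudins were at 272 ± 57.3 and 205 ± 23.96 in MB49, and at 54.1 ± 4.54 and 43.9 ± 0.459 in KPC. The claudin sums of the MB49 groups overlap within these SDs. Cldn2 went from 19.6% ± 1.57 to 37.02% ± 1.87 of the KPC claudin sum. Desmosome genes went from 280.4 ± 8.31 to 136 ± 8.98 in KPC, where Jup went from 19.3% ± 2.34 to 75.7% ± 1.71 of the sum, and from 74.5 ± 2.50 to 88.00 ± 15.98 in MB49. Tight junction scaffolds and their companions summed to 170.2 ± 4.49 and 164 ± 4.70 in MB49 and to 122 ± 2.75 and 122 ± 2.52 in KPC. These sums were not tested.

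**Figure D5:**
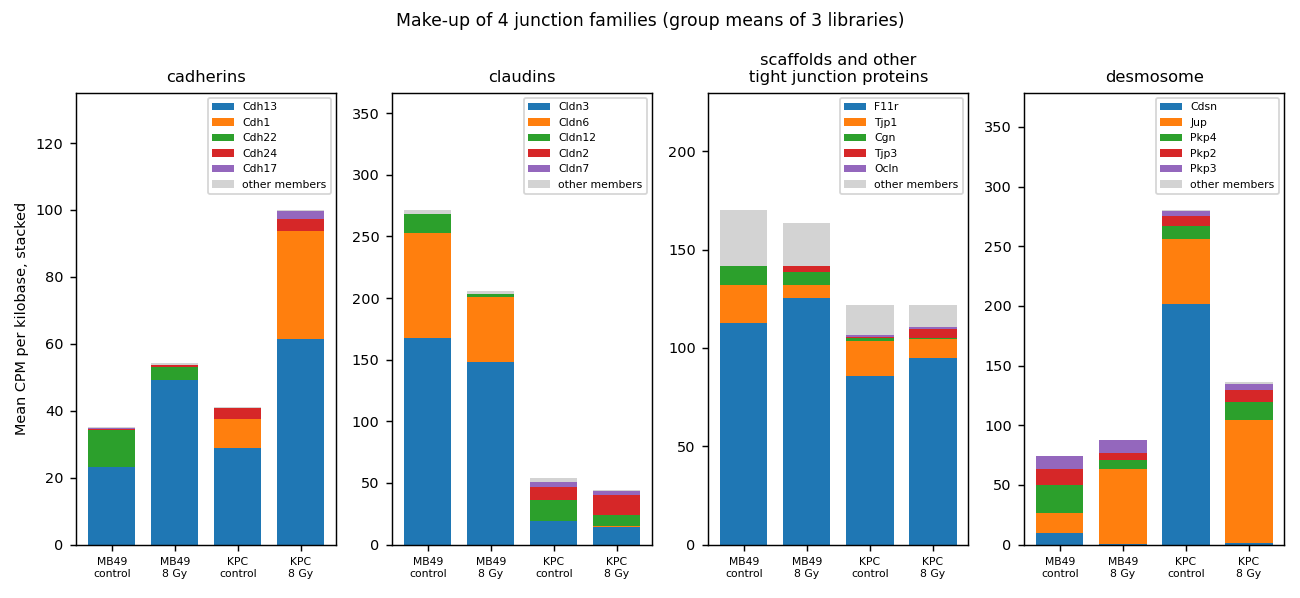
Mean CPM per kilobase of transcript (vertical axes, from 0), stacked by gene for 5 abundant members of each of 4 families and the others together, in the 4 groups of 3 libraries. Cdh13 fills most of the cadherin bar in all 4 groups, and Cdsn fills most of the KPC control desmosome bar and none that can be seen after 8 Gy.

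Of the 51 untested members, 17 had 0 counts in all 12 libraries: Cdh7, Cdh8, Cdh9, Cdh26, Cldn5, Cldn16, Cldn17, Cldn22, Cldn24, Cldn25, Gja3, Gjb6 and the 5 desmogleins named above. A further 30 had 1 to 16 counts in all (among them Cdh4, Cdh6, Cdh10, Cdh12, Cdh15, Cdh16, Cdh18, Cdh19, Cdh20, Cldn8, Cldn10, Cldn11, Cldn13, Cldn14, Cldn19, Cldn20, Gja5, Gja6, Gja10, Gjb1, Gjb2, Gjc1, Gjc3, Gjd2, Gjd4, Dsg2, Dsc1, Dsc2 and Dsc3). The other 4 had more: Dsp 84, Cldn18 46, Marveld3 41 and Cldn15 31 counts. Cldn18, known from stomach and lung, had 9, 15 and 16 counts in MB49 controls, 6 after 8 Gy and 0 in KPC. Marveld3 had 35 counts in KPC controls and 3 after 8 Gy, a ratio of 9.41 (95% counting interval 2.97 to 47.8, which covers counting error only). A count of 0 over a group allows a true level of up to 3 counts.

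Partners of these genes were read from lists chosen by function. Each list has its share called beside it, to be read against 66.9% of all tested genes in MB49 and 63.3% in KPC. Of 13 tested adherens junction catenins and nectins, 7 rose and 0 fell in MB49 (53.8%) and 8 rose and 2 fell in KPC (76.9%). Nectin4, an adhesion protein of the immunoglobulin family, rose from 1.01 CPM to 50.4 CPM in MB49 (5.65 ± 0.19, adjusted p = 2.02e-13) and from 2.53 CPM to 14.6 CPM in KPC (2.52 ± 0.17, adjusted p = 6.77e-10). Plekha7, which binds the cadherin complex, rose by 3.33 ± 0.16 (adjusted p = 1.25e-11) in MB49 and 1.40 ± 0.14 (adjusted p = 1.48e-07) in KPC. Nectin1 rose by 1.86 ± 0.16 (adjusted p = 2.32e-08) and 1.51 ± 0.16 (adjusted p = 3.89e-07). Arvcf fell in KPC, at -0.58 ± 0.15 (adjusted p = 0.003), and rose in MB49 by 0.98 ± 0.15 (adjusted p = 1.49e-05). Nectin2 fell in KPC, at -0.35 ± 0.13 (adjusted p = 0.021), a call lost in 4 of 19 alternatives, and was not called in MB49 (112 CPM and 102 CPM). The catenins that join cadherins to actin, named after their values were seen, rose in both lines: Ctnnb1 by 0.53 ± 0.12 (adjusted p = 0.00114) in MB49 and 0.64 ± 0.12 (adjusted p = 0.000237) in KPC, and Ctnna1 by 0.41 ± 0.12 (adjusted p = 0.00519) and 1.23 ± 0.12 (adjusted p = 7.72e-08). With library totals as the only scaling the Ctnnb1 changes were 0.23 (adjusted p = 0.133) in MB49 and 0.25 (adjusted p = 0.108) in KPC, and that of Ctnna1 in MB49 was 0.11 (adjusted p = 0.413). With no filter on low counts the Ctnna1 change in MB49 was 0.28 (adjusted p = 0.0979). The list medians were 0.41 in MB49 and 0.55 in KPC, against 0.04 and -0.01 for all genes.

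Of 12 tested plakins, keratins and Perp, which meet desmosomes from the cell's inside, 9 rose and 1 fell in each line (83.3% called). Krt8, a keratin of simple epithelia, rose in KPC from 363 CPM to 1824 CPM (2.33 ± 0.14, adjusted p = 2.84e-10), and Krt19 by 2.37 ± 0.27 (adjusted p = 6.5e-06). In MB49 Krt8 rose by 0.32 ± 0.14 (adjusted p = 0.0437), a call kept in 6 of 19 alternatives, and Krt19 was not called (3.85 CPM and 3.25 CPM). Krt7 rose by 5.40 ± 0.41 (adjusted p = 1.33e-08) in MB49, or 7.55 (adjusted p = 3.66e-12) without MB49 control replicate 3, and by 1.01 ± 0.23 (adjusted p = 0.00118) in KPC. The plakin Evpl rose by 3.77 ± 0.23 (adjusted p = 2.87e-10) and 2.17 ± 0.18 (adjusted p = 1.08e-08). Dst, the plakin of hemidesmosomes, fell in both lines, at -0.67 ± 0.17 (adjusted p = 0.00265) in MB49 and -1.29 ± 0.18 (adjusted p = 5.98e-06) in KPC. Of 17 other tested tight junction proteins, 3 rose and 7 fell in MB49 (58.8%), and 5 rose and 9 fell in KPC (82.4%). Amotl2, an angiomotin, fell from 93.3 CPM to 5.27 CPM in MB49 (-4.15 ± 0.16, adjusted p = 1.07e-12) and from 331 CPM to 124 CPM in KPC (-1.41 ± 0.14, adjusted p = 9.35e-08). Marveld1 fell in both lines, with changes of -1.44 ± 0.14 (adjusted p = 5.92e-08) in MB49 and -2.78 ± 0.14 (adjusted p = 3.48e-11) in KPC, as did Magi3, with -1.78 ± 0.18 (adjusted p = 1.51e-07) and -0.78 ± 0.17 (adjusted p = 0.000744). The small GTPase Rab13 rose in both lines, by 1.98 ± 0.15 (adjusted p = 5.91e-09) and 1.77 ± 0.15 (adjusted p = 1.8e-08).

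Of 9 tested repressors of Cdh1, 4 rose and 3 fell in MB49 (77.8%), and 2 rose and 4 fell in KPC (66.7%). Snai2 (SLUG), a zinc finger repressor that binds the E-box, was an MB49 gene: it fell there from 90.4 CPM to 6.70 CPM (-3.75 ± 0.18, adjusted p = 5.64e-10), and all KPC libraries had 0 counts of it. Zeb2 fell in both lines, at -1.23 ± 0.16 (adjusted p = 3.63e-06) in MB49 and -0.71 ± 0.16 (adjusted p = 0.000986) in KPC, as did Zeb1, with -0.60 ± 0.15 (adjusted p = 0.00172) and -0.63 ± 0.15 (adjusted p = 0.00155). Tcf4 rose by 0.94 ± 0.15 (adjusted p = 3.48e-05) in MB49 and 0.67 ± 0.14 (adjusted p = 0.000574) in KPC, where with library totals as the only scaling it was 0.29 (adjusted p = 0.114). Foxc2 rose in KPC by 1.13 ± 0.15 (adjusted p = 1.62e-05) and had 0 counts in MB49. Of 14 tested activators of epithelial junction genes, 3 rose and 6 fell in MB49, and 5 rose and 4 fell in KPC. This is 64.3% in each line, near the share of all tested genes. Grhl2 fell in MB49, at -1.86 ± 0.25 (adjusted p = 4.7e-06), and was under 0.1 CPM in KPC. Klf5 fell in MB49, at -1.09 ± 0.12 (adjusted p = 4.59e-07), and rose in KPC by 0.38 ± 0.12 (adjusted p = 0.0108), a rise that turned to -0.011 with library totals as the only scaling and was 0.34 (adjusted p = 0.0516) without KPC control replicate 2. Klf4 rose in KPC by 0.74 ± 0.13 (adjusted p = 8.88e-05) and fell in MB49, at -0.35 ± 0.13 (adjusted p = 0.0243), which was -0.22 (adjusted p = 0.134) without MB49 control replicate 3 and -0.34 (adjusted p = 0.0636) without MB49 8 Gy replicate 2. Ehf rose by 2.47 ± 0.39 (adjusted p = 2.38e-05) in MB49, or 3.59 (adjusted p = 5.46e-08) without MB49 control replicate 3, and by 1.29 ± 0.20 (adjusted p = 2.56e-05) in KPC. The splicing factor Esrp2 rose in MB49 by 2.19 ± 0.34 (adjusted p = 2.31e-05) and fell in KPC, at -1.21 ± 0.20 (adjusted p = 5.84e-05).

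Markers of other cell types were read beside these results. The 11 immune markers summed to at most 5.64 CPM in any library. Ptprc and Cd3e each had at most 1 count in a group, while 2 other markers of the list were called higher in each line. Immune sums were nonetheless higher after 8 Gy. They were 0.403 to 1.17 CPM in MB49 controls and 4.80 to 4.92 after 8 Gy. In KPC they were 1.67 to 2.17 and 5.36 to 5.64. Of 3 tested immune markers, 2 rose and 0 fell in each line (66.7%, against 66.9% and 63.3% of all tested genes). The 7 endothelial markers summed to at most 5.31 CPM. Of 10 urothelial markers, 1 reached 1 CPM in MB49 controls and 2 after 8 Gy, against 3 in both KPC groups, and the uroplakin gene Upk2 had 0 counts in MB49. Of 8 pancreatic duct and progenitor markers, 6 reached 1 CPM in both KPC groups and 5 in both MB49 groups. The numbers of markers at 1 CPM thus do not separate the lines by tissue. By level, pancreatic markers summed to 343 to 371 CPM in KPC controls and 148 to 178 in MB49 controls. Of 6 tested, 4 were higher and 1 lower in KPC controls. Urothelial sums were also higher in KPC controls, at 26.3 to 33.3 CPM against 13.2 to 17.5. Epithelial markers summed to 2261 to 2736 CPM in MB49 controls and 2698 to 3531 after 8 Gy, and to 801 to 929 and 3400 to 3807 in KPC. Such sums weigh abundant genes most. Gene by gene, 3 of 5 tested epithelial markers were higher in KPC controls than in MB49 controls and 2 were lower. The median log2 difference was 4.41. Mesenchymal markers summed to 4426 to 5105 and 11417 to 13107 CPM in MB49, and to 7018 to 11850 and 13176 to 14232 in KPC. Vim rose in both lines, by 1.83 ± 0.13 (adjusted p = 2.19e-09) and 3.71 ± 0.14 (adjusted p = 7.05e-13), while Fn1 fell, at -1.41 ± 0.23 (adjusted p = 4.43e-05) and -0.79 ± 0.22 (adjusted p = 0.00556). Fibroblast markers summed to 55.6 to 105.9 and 159.8 to 215 CPM in MB49, and to 169.4 to 212.8 and 82.1 to 101.7 in KPC. The higher MB49 sum did not reflect the whole list. Of 5 tested fibroblast markers, 2 rose and 2 fell in MB49, with a median log2 change of -1.20. In KPC 0 rose and 4 fell, with a median of -1.02. The part of all these markers in the junction results was not tested.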

How the data were processed

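RNA of 12 libraries was sequenced after a stranded mRNA preparation, per the labels' protocols. The submitters' processing notes name fastp, HISAT2, StringTie and GRCm39, without versions. No source used here names the counting tool or its strand setting. Values deposited by the authors are expected counts per gene, which are not all whole and were rounded here. Rows without a gene symbol held 0.184% to 0.449% of the counts.

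Genes were filtered by group with filterByExpr, which left 14362, scaled by TMM and tested with edgeR 4.0.16 (quasi-likelihood, robust, R 4.3.3), all 12 libraries in 1 fit, with Benjamini-Hochberg adjustment over all genes tested and a threshold of 0.05. Irradiated and control libraries were compared within MB49 and within KPC, these responses were compared with each other, and so were the controls of the lines, which makes 4 comparisons. Ratios of few counts have exact 95% intervals that cover counting error only. Alternatives were DESeq2 1.42.0, other scalings and filters, a replicate block, fits of 6 libraries, and each library left out. Scripts were tested on simulated data.

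Members and gene lists were chosen with earlier results of these data known. Values in all libraries are given for tested members with a group mean of at least 5 CPM that were called in any comparison; of other lists, up to 2 risers and 2 fallers in each line are named. Gene order and overlaps came from a GENCODE annotation of GRCm38, and no coordinates of it were joined to the counts. Some members are not reported here by name; counts over all members include them.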

Additional observations from a re-analysis of the deposited data

Results flagged for a closer look

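The response to 8 Gy differed between the lines in 16 members by the interaction term of the edgeR fit. Differences are log2 values, KPC response minus MB49 response. Among them, changes that were lower in KPC were those of Cdsn (-2.95, adjusted p = 3.98e-08), Jup (-0.96, adjusted p = 0.00226), Tjp3 (-1.68, adjusted p = 0.0149) and Cdh23 (-2.07, adjusted p = 0.0166). Changes that were higher in KPC were those of Pkp2 (1.69, adjusted p = 5.45e-07), Pkp4 (1.97, adjusted p = 5.92e-07), Cldn12 (1.61, adjusted p = 4.59e-06), Gjb5 (1.26, adjusted p = 0.0112), Tjp1 (0.66, adjusted p = 0.0276) and Cdh11 (3.21, adjusted p = 0.0332). That of Cdh11 rested on 43 and 3 summed counts in MB49 and 8 and 6 in KPC (control and 8 Gy), and its call was kept in 6 of 17 alternatives. That of Tjp1 was kept in 11 of 18. The value for Cldn1 (5.54, adjusted p = 0.00566) was fitted against KPC controls with 0 counts and is no bound. Those of Cdh17 (7.33, adjusted p = 0.00907) and Cdh1 (5.47, adjusted p = 0.0323) rested on MB49 control replicate 3 and were 0.98 (adjusted p = 0.711) and 1.99 (adjusted p = 0.114) without it.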

How the results depend on the processing

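Of the calls, 21 of 25 in MB49, 16 of 23 in KPC, 9 of 16 differences of response and 33 of 34 between controls kept their call in all alternatives that tested them. With no filter on low counts, 22 members were lower in MB49 (14 with the filter), among 26798 genes tested. Leaving out each library gave 8 to 11 members higher and 13 to 18 lower in MB49, 11 to 14 and 8 to 11 in KPC, 6 to 11 and 4 to 6 for the difference, and 14 to 15 and 19 to 20 between controls. The lowest, 6, came without KPC control replicate 2, and 7 came without MB49 8 Gy replicate 2. Library totals moved the median of all genes from 0.04 to -0.23 in MB49 and from -0.01 to -0.39 in KPC.

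With library totals, the sign turned for F11r (-0.14) and Pkp3 (-0.23) in MB49, for Pkp4 (-0.018), F11r (-0.24), Pkp3 (-0.24), Cdh24 (-0.072) and Klf5 (-0.011) in KPC, and for the differences of Cdh13 (-0.088) and Gja1 (-0.071). Pkp3 in MB49 was -0.052 without the filter and -0.014 in a fit of the 6 libraries of that line. The difference of Cdh13 was 0.13 with no filter, 0.060 with relative log expression scaling, 0.060 with DESeq2 and -0.0071 with at least 1 CPM in 3 libraries. Leaving out each library gave -2.96 to 4.26 for Cdh17, -0.025 to 0.22 for Pkp3 and -0.38 to 0.12 for Cldn3 in MB49. It gave -0.087 to 0.078 for the difference of Cdh13, -0.019 to 0.10 for that of Gja1, and, between controls, -1.75 to 5.22 for Cdh17 and -0.31 to 0.046 for Tjp1. The cause was not tested.

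The libraries showed no sign of pairing by replicate number, in a check that cannot show how the cultures were handled. Correlations between libraries of different groups were taken on log CPM after each group's mean was subtracted. Their median was -0.03 over 18 same-numbered pairs and 0.03 over 36 differently numbered pairs. Of 12 libraries, 0 correlated best with their own number. With the replicate block, 9 members were higher and 14 lower in MB49, 13 and 10 in KPC, 9 and 5 for the difference, and 15 and 19 between controls.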

Other observations

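Genes around the junctions also differed after 8 Gy. Shares called are given in brackets, and over all tested genes they were 66.9% in MB49 and 63.3% in KPC. Of 9 tested proteases that cut junction proteins, 4 rose and 1 fell in MB49 (55.6%), and 6 rose and 1 fell in KPC (77.8%), by edgeR. Mmp9 rose in MB49 from 65.6 CPM to 255 CPM (1.96 ± 0.16, adjusted p = 1.06e-08) and in KPC from 0.436 CPM to 1.38 CPM (1.63 ± 0.33, adjusted p = 0.000318). Capn2 rose in KPC by 1.29 ± 0.12 (adjusted p = 6.03e-08) and was not called in MB49 (241 CPM and 223 CPM). Adam15 rose in both lines, by 1.34 ± 0.14 (adjusted p = 2.4e-07) and 1.25 ± 0.14 (adjusted p = 5.86e-07), and Psen2 fell in both, at -0.93 ± 0.18 (adjusted p = 0.000195) and -1.10 ± 0.17 (adjusted p = 2.08e-05). Of 13 tested protocadherins and related genes, 3 rose and 3 fell in MB49 (46.2%), and 4 rose and 4 fell in KPC (61.5%). Pcdh19 fell in both lines, at -2.63 ± 0.19 (adjusted p = 2.37e-09) and -1.33 ± 0.17 (adjusted p = 3.59e-06), and Pcdhgc3 rose in both, by 1.31 ± 0.20 (adjusted p = 2.17e-05) and 0.73 ± 0.20 (adjusted p = 0.00388), the latter 0.34 (adjusted p = 0.136) with library totals as the only scaling. Clstn3 rose in KPC by 1.82 ± 0.17 (adjusted p = 4.83e-08) and was not called in MB49 (112 CPM and 128 CPM). Of 14 tested genes of polarity complexes, 5 rose and 5 fell in MB49 (71.4%), and 5 rose and 2 fell in KPC (50%). Prkci fell in both, at -1.50 ± 0.13 (adjusted p = 2.47e-08) and -0.95 ± 0.13 (adjusted p = 3.99e-06), and Llgl2 rose in both, by 1.95 ± 0.18 (adjusted p = 5.9e-08) and 0.89 ± 0.17 (adjusted p = 0.00018). Crb3 rose in KPC by 2.10 ± 0.32 (adjusted p = 1.83e-05) and was not called in MB49 (0.111 CPM and 0.0788 CPM). Panx1, the only pannexin tested, was called in neither line, with means of 11.5 CPM and 11.8 CPM in MB49 and 8.70 CPM and 7.60 CPM in KPC.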
